A study of Arabidopsis thaliana with 8 samples.

Results

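The genes described here are 6 nuclear genes of Arabidopsis thaliana whose products belong to photosystem I, photosystem II, its light-harvesting antenna, or the assembly of photosystem II. They are LHB1B2, PSAN, PSBW, PSBY, PSB27 and LPA19. They were chosen by name, as the genes of these classes among the array probes whose annotation gives exactly 1 gene, and each has 1 such probe. They are 6 of 691 genes with a single-gene probe, on an array of 3439 probes. The samples were total RNA of wild-type plants (WT) and of the tic40 mutant, both in the ecotype Columbia 0, with 4 samples of each genotype, numbered 1 to 4. The labels give the mutant as impaired in moving proteins across the inner chloroplast envelope, and they name no allele, tissue, age or growth condition. They do not say whether samples came from separate plants, so a p-value refers to the spread among these samples and may hold technical variation alone.

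Photosystem II and photosystem I are the pigment-protein complexes of the thylakoid membrane that carry out the light reactions of photosynthesis. The chloroplast genome encodes their core subunits, while the antenna proteins, many small subunits and the assembly factors are encoded in the nucleus, made as precursors in the cytosol and imported through the TOC and TIC translocons of the envelope. TIC40 acts as a co-chaperone at the inner of these translocons. All 6 genes therefore encode proteins that have to be imported, and the arrays measured their transcripts, not the proteins. In RNA of whole samples, fewer cells that express a gene and less RNA per cell cannot be told apart.

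The deposited values are array intensities on a linear, relative scale, with an array mean of 1.03 to 1.12. The array medians spanned 0.72 on the log2 scale, so the arrays were brought to 1 common distribution (quantile normalization). Levels below are normalised intensities, and a level is compared only with the same probe on other arrays. All 6 probes were above 0 on all 8 arrays. In the distribution of deposited values WT samples 1 and 2 stood apart. Their medians were 0.361 and 0.354, against 0.559 to 0.604 on the other arrays. They had 260 and 277 probes at 0, against 174 to 204, and a highest value of 100, against 65.4 to 89.4. By correlation, WT samples 3 and 4 stood apart from the other arrays. Across 3318 probes they correlated with WT samples 1 and 2 at 0.707 to 0.722 on the log2 scale, whereas the correlations of WT samples 1 and 2 with tic40 samples were 0.874 to 0.907. Results are therefore given also within samples 1 and 2 and within samples 3 and 4. These pairs were noticed in the data, and the labels do not explain them.

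LHB1B2 encodes an Lhcb1 protein of the main chlorophyll a/b-binding antenna of photosystem II. Its normalised intensity was 11.0, 10.2, 3.80 and 4.61 in WT samples 1 to 4, and 2.51, 2.57, 2.58 and 2.93 in tic40 samples 1 to 4. Every tic40 value lay below every WT value. WT samples 1 and 2 were 2.52 times as high as WT samples 3 and 4, while the 4 tic40 values were close together. The mean level was 7.40 ± 3.71 in WT and 2.65 ± 0.190 in tic40 (SD, n = 4 each). The fitted log2 difference, tic40 minus WT, was -1.33 (95% confidence interval -2.16 to -0.51, limma adjusted p = 0.0614) and did not pass the threshold of 0.05, with a WT coefficient of variation of 50.2% against 7.18% in tic40. With a replicate block for the sample number, the limma adjusted p was 0.103. With 1 array left out, LHB1B2 was called in 1 of 8 fits (limma adjusted p 0.0425 to 0.152). The fit that called it left out WT sample 3, with a log2 difference of -1.60. Without both WT samples 3 and 4 the log2 difference was -2.00 (limma adjusted p = 0.000688), and without both WT samples 1 and 2 it was -0.66 (limma adjusted p = 0.00582). These 2 fits keep 1 WT pair noticed in the data, so the WT spread is that within the pair. Limma called 985 probes in the first and 1833 in the second, against 255 over all arrays. The LHCB1 genes are a family of near-identical copies. The annotation names LHB1B2 alone for this probe, but signal from other family members cannot be told apart here.

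**Figure D1:**
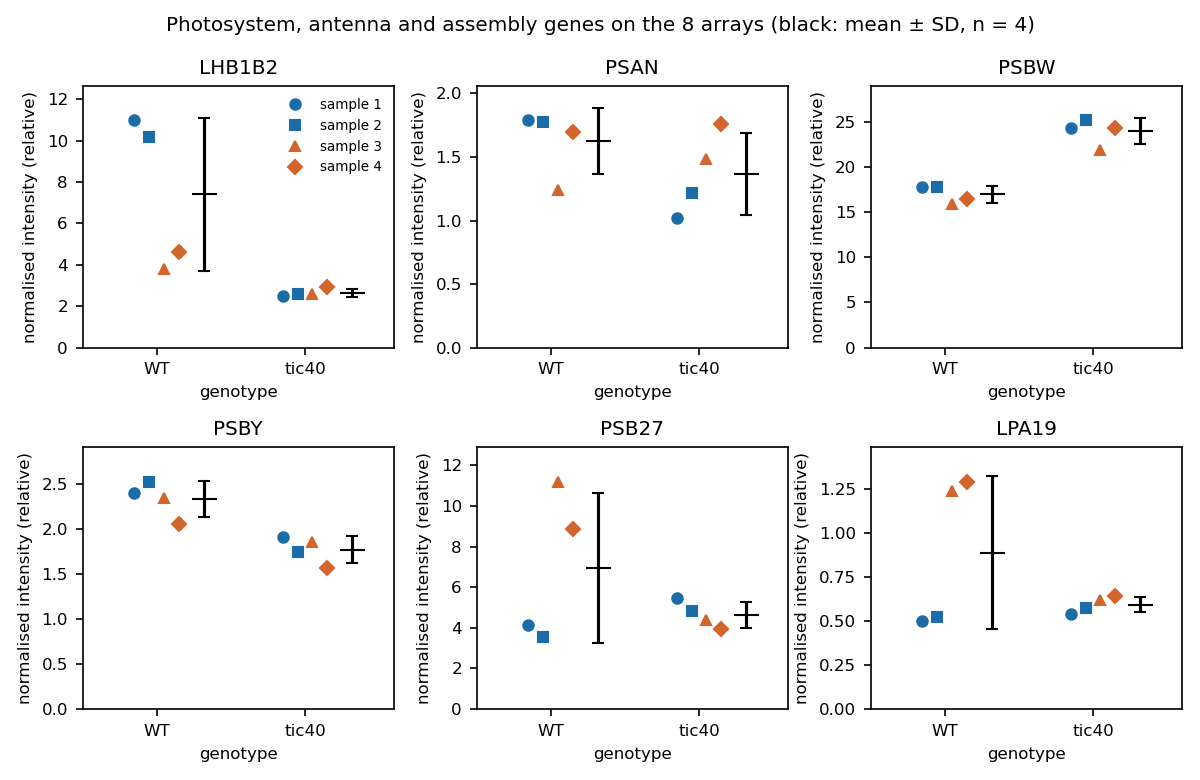
Normalised intensity (relative units, linear axis from 0) of each gene on each array, by genotype. Points are single arrays (circles, squares, triangles and diamonds for samples 1 to 4, blue for 1 and 2 and orange for 3 and 4) and black bars are the mean ± SD of 4 samples. LHB1B2, PSBY and PSBW are the genes whose WT and tic40 values do not overlap, and in LHB1B2, PSB27 and LPA19 the WT values fall into separate pairs.

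PSBW encodes a small subunit of photosystem II with 1 membrane span, which holds the antenna and the core together in larger complexes. Its normalised intensity was 17.8, 17.8, 15.8 and 16.5 in WT samples 1 to 4, and 24.4, 25.2, 21.9 and 24.4 in tic40 samples 1 to 4. All tic40 values were above all WT values. PSBW was the only 1 of the 6 genes to pass the test over all arrays, at a log2 difference of 0.50 (SE 0.12, limma adjusted p = 0.0479), higher in tic40. Quantile normalization gives each probe the value that belongs to its rank. By rank, PSBW was 19th, 19th, 22nd and 21st brightest of 3439 probes in WT samples 1 to 4, and 12th, 11th, 14th and 12th in tic40.

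The rise of PSBW rested on this rank. The deposited intensities were 22.4, 24.1, 12.7 and 14.2 in WT and 21.1, 23.5, 23.0 and 25.3 in tic40. On that scale WT samples 1 and 2 lay within the tic40 range and WT samples 3 and 4 below it. As deposited the log2 difference was 0.39 (limma adjusted p = 0.355), and with each array centred on its median it was 0.03 (adjusted p = 0.974). Within samples 1 and 2 the direction turned with the scaling. The log2 difference there was 0.48 (adjusted p = 0.0269) after quantile normalization, -0.06 (adjusted p = 0.638) as deposited and -0.79 (adjusted p = 0.0204) with median centring. Within samples 3 and 4 PSBW was higher in tic40 on all 3 scales, by 0.52 (adjusted p = 0.0157), 0.84 (adjusted p = 0.00667) and 0.85 (adjusted p = 0.00676). With a replicate block for the sample number, the limma adjusted p was 0.0923, and it was 0.0613 to 0.137 when any 1 array was left out.

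PSBY encodes small membrane proteins of photosystem II, which in Arabidopsis are cut from 1 precursor. Its normalised intensity was 2.40, 2.53, 2.35 and 2.06 in WT samples 1 to 4, and 1.92, 1.75, 1.86 and 1.56 in tic40. The genotypes did not overlap, and the gap between the lowest WT and the highest tic40 value was small. The mean was 2.33 ± 0.197 in WT and 1.77 ± 0.155 in tic40 (SD, n = 4 each), and the log2 difference of -0.40 (SE 0.14, limma adjusted p = 0.120) did not pass. It was -0.36 (adjusted p = 0.168) as deposited and -0.72 (adjusted p = 0.0506) with median centring. Without both WT samples 3 and 4, PSBY was called, at -0.48 (limma adjusted p = 0.0271), in a fit that called 985 probes against 255 over all arrays. Without both WT samples 1 and 2 it was not called, at -0.32 (limma adjusted p = 0.0679), in a fit that called 1833 probes.

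PSAN encodes a subunit of photosystem I on the side of the thylakoid lumen, where plastocyanin docks. Its normalised intensity was 1.79, 1.77, 1.24 and 1.70 in WT samples 1 to 4, and 1.02, 1.22, 1.48 and 1.76 in tic40. The genotypes overlapped. WT sample 3 was low among the WT arrays, and tic40 samples 1 and 2 were lower than tic40 samples 3 and 4. The log2 difference was -0.26 (95% confidence interval -0.76 to 0.23, limma adjusted p = 0.479). Within samples 1 and 2 PSAN was lower in tic40, with a log2 difference of -0.68 (limma adjusted p = 0.0321), while within samples 3 and 4 the log2 difference was 0.15 (adjusted p = 0.550).

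PSB27 encodes a lumenal protein that binds photosystem II during its assembly and repair. Its normalised intensity was 4.15, 3.53, 11.2 and 8.87 in WT samples 1 to 4, and 5.44, 4.81, 4.39 and 3.95 in tic40. WT samples 3 and 4 were 2.61 times as high as WT samples 1 and 2. The tic40 values overlapped WT samples 1 and 2 and lay below WT samples 3 and 4. Over all arrays the log2 difference was -0.42 (95% confidence interval -1.29 to 0.45, limma adjusted p = 0.522). It was 0.42 within samples 1 and 2 (limma adjusted p = 0.0927) and -1.26 within samples 3 and 4 (adjusted p = 0.00713). The scaling changed the first of these. With median centring the difference in samples 1 and 2 was -0.40 (adjusted p = 0.116), the median-scaled intensities were 5.12 to 8.90 in WT and 3.54 to 4.47 in tic40 without overlap, and the log2 difference over all arrays was -0.76 (limma adjusted p = 0.0588).

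LPA19 encodes a relative of Psb27 in the lumen that assists the processing of the D1 precursor, the reaction-centre protein of photosystem II. Its normalised intensity was 0.499, 0.524, 1.24 and 1.29 in WT samples 1 to 4, and 0.542, 0.572, 0.616 and 0.639 in tic40. As with PSB27, WT samples 3 and 4 were the high arrays, 2.47 times as high as WT samples 1 and 2. The tic40 values lay between the WT pairs, close above WT samples 1 and 2. The log2 difference over all arrays was -0.44 (95% confidence interval -1.24 to 0.36, limma adjusted p = 0.458). It was 0.12 within samples 1 and 2 (limma adjusted p = 0.338) and -1.01 within samples 3 and 4 (adjusted p = 0.00329). As deposited, LPA19 was called higher in tic40 within samples 1 and 2, at 0.87 (adjusted p = 0.00683). On that scale the median probe in these samples was itself at 0.70.

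Of the 6 genes, 1 was thus called over all arrays, higher in tic40, where limma called 7.69% of all 3318 probes, 2.32% higher and 5.36% lower. This fit has no block for the sample number. With the replicate block limma called 5 probes, 0.151% of all, and none of the 6 genes. The median log2 difference was -0.41 over the 6 genes and -0.06 over all probes tested. The genotypes did not overlap for 3 of the 6 genes, PSBW higher and LHB1B2 and PSBY lower. Among all probes 21.8% did not overlap, 8.35% higher and 13.5% lower. Without scaling, limma called 10.8% of probes, and the difference of the median probe was 0.32 on the log2 scale. With median centring it called 7.17%. None of the 6 genes passed under either. LHB1B2 and PSBY lay lower in tic40 without overlap under all 3 scalings, as 3.92% of all probes did as deposited and 12.7% with median centring.

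**Figure D2:**
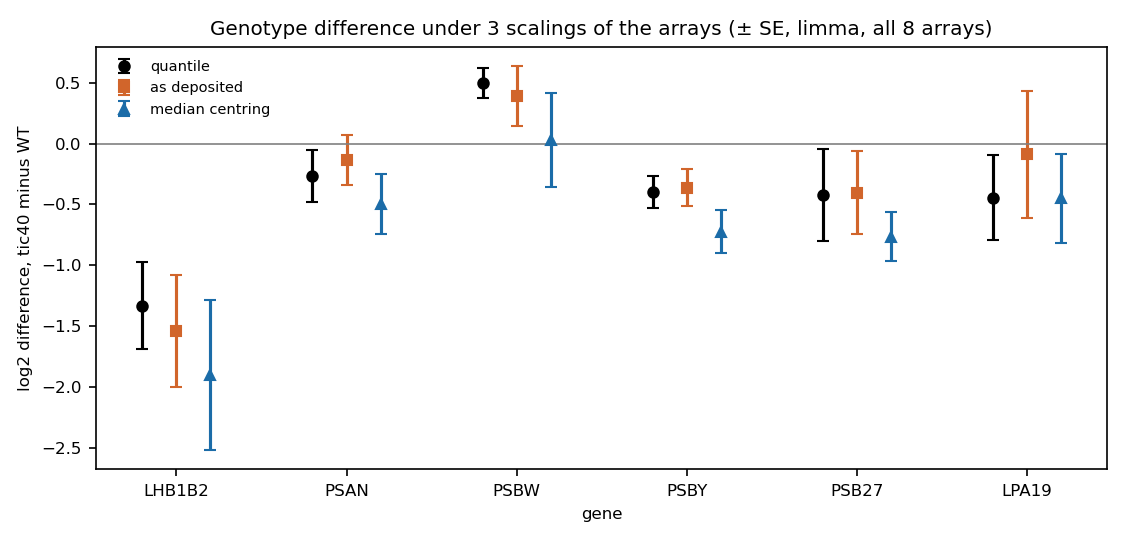
Log2 difference, tic40 minus WT, of each gene over all 8 arrays under quantile normalization (black circles), as deposited (orange squares) and with median centring (blue triangles). Bars are the SE of the limma fit. PSBW goes from 0.50 to 0.03 with the scaling, and LHB1B2 stays between -1.33 and -1.90.

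Within pairs of samples, 4 of the 6 genes were called in samples 1 and 2, PSBW higher and LHB1B2, PSAN and PSBY lower. There limma called 30.5% of all probes, 13.5% higher and 17% lower. In samples 3 and 4, where it called 60.3%, 25.3% higher and 34.9% lower, 4 genes passed, PSBW higher and LHB1B2, PSB27 and LPA19 lower. LHB1B2 was at -2.06 in samples 1 and 2 (limma adjusted p = 0.0103) and at -0.61 in samples 3 and 4 (adjusted p = 0.0310). After quantile normalization PSBW and LHB1B2 were the genes that passed in both, and PSBW did so in samples 1 and 2 with quantile normalization but not as deposited, and with median centring in the other direction. LHB1B2 passed in both pairs under all 3 scalings, lower in tic40. As deposited, PSAN (-0.32, limma adjusted p = 0.0962) and PSBY (-0.25, adjusted p = 0.115) were not called in samples 1 and 2, while PSBY was called in samples 3 and 4 (-0.48, adjusted p = 0.0343). With median centring PSBY was called lower in both pairs, at -0.97 (limma adjusted p = 0.0146) and -0.47 (adjusted p = 0.0338). These fits set 2 arrays against 2 and measure only the spread within such pairs. The share of all probes called in both pairs is not given here, so passing in both cannot be read as particular to these genes. Shares within a pair are given for quantile normalization alone.

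**Figure D3:**
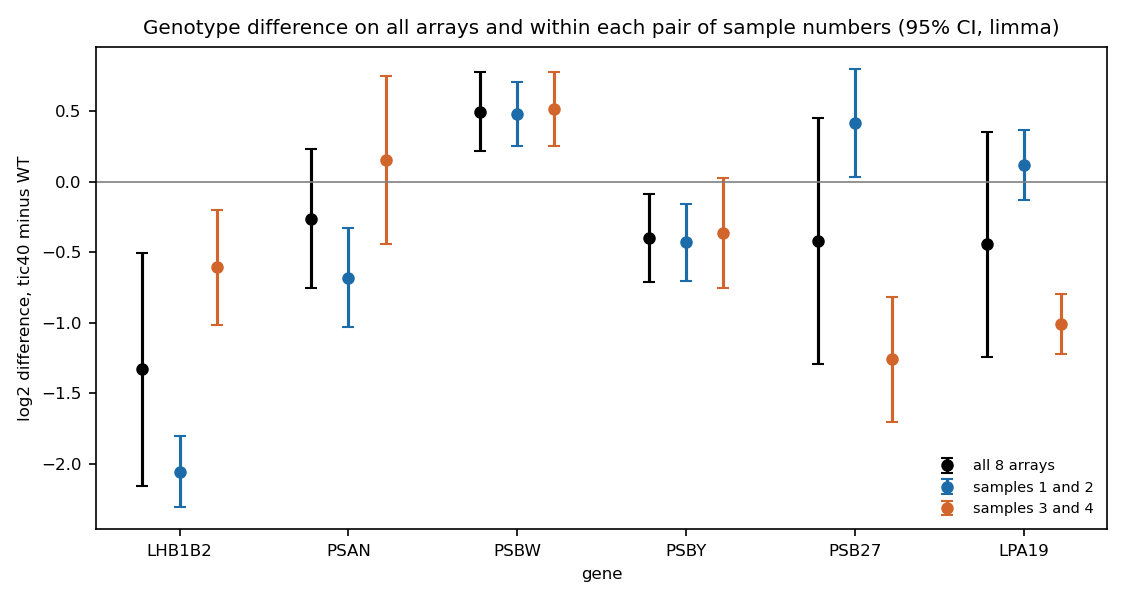
Log2 difference, tic40 minus WT, of each gene over all 8 arrays (black), in samples 1 and 2 (blue) and in samples 3 and 4 (orange), quantile-normalised. Bars are 95% confidence intervals from limma. PSBW and PSBY have nearly the same difference in both pairs, LHB1B2 is at -2.06 and -0.61, and PSB27 and LPA19 are at 0.42 and 0.12 in samples 1 and 2 but at -1.26 and -1.01 in samples 3 and 4.

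Whether the genotype difference itself differed between the pairs was tested with an interaction term. The difference in samples 3 and 4 minus that in samples 1 and 2 was 1.45 for LHB1B2 (SE 0.17, limma adjusted p = 0.00177), so tic40 lay further below WT in samples 1 and 2. It was -1.68 for PSB27 (SE 0.22, adjusted p = 0.00221) and -1.13 for LPA19 (SE 0.11, adjusted p = 0.000841), the opposite direction. PSAN was also called, at 0.83 (SE 0.26, adjusted p = 0.0404), but not as deposited (0.37, adjusted p = 0.262). For PSBW the interaction was 0.03 (95% confidence interval -0.26 to 0.32, adjusted p = 0.828) and for PSBY 0.06 (-0.37 to 0.49, adjusted p = 0.788). Quantile normalization was the exception for PSBW, whose interaction was called at 0.91 as deposited (limma adjusted p = 0.00349) and at 1.63 with median centring (adjusted p = 0.000647). That of PSBY was -0.23 as deposited (adjusted p = 0.273) and 0.50 with median centring (adjusted p = 0.0474). The sizes of the others also moved with the scaling. With median centring the interaction was 2.61 for LHB1B2 and -0.73 for PSB27, and as deposited it was -1.92 for LPA19, all 3 still called. The interaction was called for 51.7% of all probes, 25.5% above 0 and 26.3% below, so 4 of these 6 genes is a share near that of the array.

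For LHB1B2, PSB27 and LPA19 the step between the pairs of samples was larger in WT than in tic40. WT samples 3 and 4 differed from WT samples 1 and 2 by -1.34 for LHB1B2, 1.38 for PSB27 and 1.31 for LPA19 on the log2 scale. The same step between tic40 samples was 0.11, -0.30 and 0.17. PSAN had a step of -0.30 in WT and 0.54 in tic40. For PSBW and PSBY the WT steps were -0.14 and -0.16 after quantile normalization. For PSBW this held on that scale alone, since its WT step was -0.79 as deposited and -1.43 with median centring. With median centring the WT step of PSB27 was 0.55 and that of LHB1B2 -2.40, and as deposited that of LPA19 was 2.01. After quantile normalization the WT pairs did not overlap for any of the 6 genes, as for 81.5% of all probes, and the tic40 pairs did not overlap for 4 of the 6, against 69.6% of all probes. A WT step of over 1 in either direction was present at 32.8% of all probes, and a tic40 step of that size at 5.46%. The WT step was larger in size at LHB1B2, PSB27 and LPA19 than at 79.1%, 80.4% and 78.2% of all probes. A difference in growth, RNA or hybridisation between the WT pairs was not tested.

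The relation of the 6 genes to one another was described by the distance between their log2 profiles over the 8 arrays, each centred on its own mean and compared by the root mean square difference. After quantile normalization the closest of the 15 gene pairs was PSB27 with LPA19, at 0.225, the pair of Psb27-type assembly proteins. PSAN with PSBY followed at 0.330. LHB1B2 was far from both assembly genes, at 1.09 from PSB27 and 1.04 from LPA19, and at 1.01 from PSBW. The profiles share the arrays and their scaling, and this is a description with no test. The order of the pairs is given for the quantile-normalised values alone. On the other scales PSB27 and LPA19 were less alike in WT. Their log2 steps from WT samples 1 and 2 to 3 and 4 were 1.19 and 2.01 as deposited. With median centring these steps were 0.55 and 1.37.

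**Figure D4:**
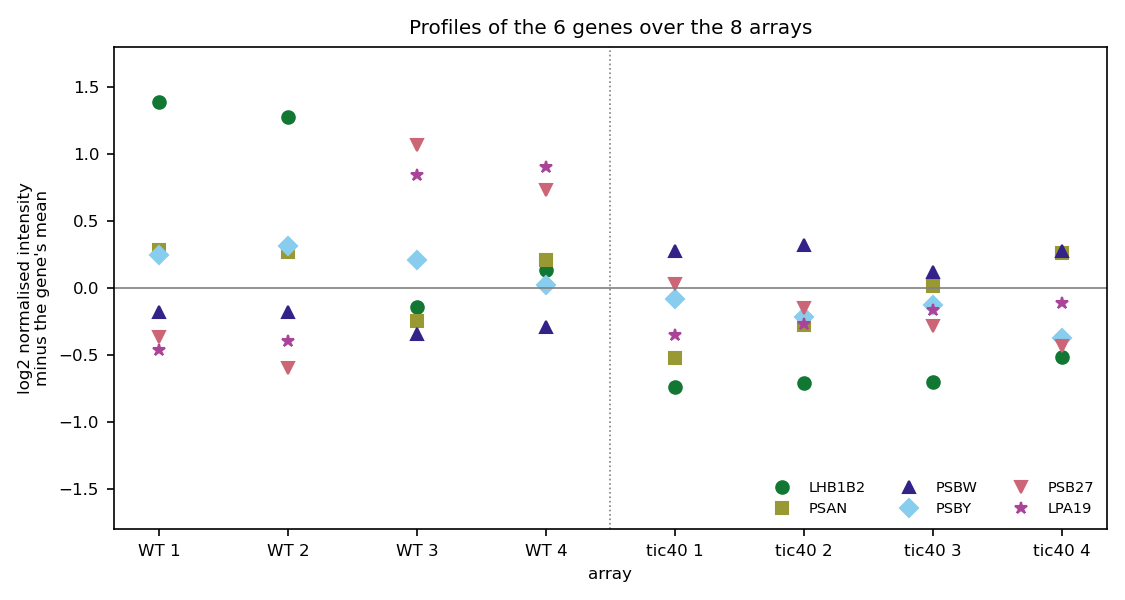
Log2 normalised intensity of each gene on each array, minus the gene's mean over the 8 arrays. PSB27 and LPA19 are high in WT samples 3 and 4, where LHB1B2 is low compared with WT samples 1 and 2, and PSBW is the gene that is above its mean on all tic40 arrays and below it on all WT arrays.

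The ratio of 2 genes on the same array does not depend on any linear scaling of that array, so it was taken from the deposited intensities. The ratio of LHB1B2 to PSBW had log2 values, centred on their mean, of 1.55, 1.35, 0.49 and 0.48 in WT samples 1 to 4, and -0.92, -1.02, -0.97 and -0.95 in tic40. All tic40 arrays lay within 0.10 of one another and below all WT arrays. The ratio was 3.82-fold lower in tic40 on average, with a log2 difference of -1.93 (SD 0.56 in WT and 0.04 in tic40, n = 4 each). It was -2.42 in samples 1 and 2 and -1.45 in samples 3 and 4. The ratio of LHB1B2 to PSAN was also lower on all tic40 arrays, by -1.41 on the log2 scale on average, and that of PSBW to PSBY higher, by 0.76. Both gaps were narrow. For LHB1B2 to PSAN the lowest WT value was -0.39 and the highest tic40 value -0.43. For PSBW to PSBY the highest WT value was 0.11 and the lowest tic40 value 0.14. In samples 1 and 2 these ratios differed by -2.16 and 0.19, and in samples 3 and 4 by -0.65 and 1.32. The other 12 ratios overlapped between the genotypes. Thus 3 of 15 ratios did not overlap, against 19.7% of the 186966 ratios among single-gene probes above 0 on all arrays. A ratio shows that 2 transcripts changed unequally, not which of them changed.

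**Figure D5:**
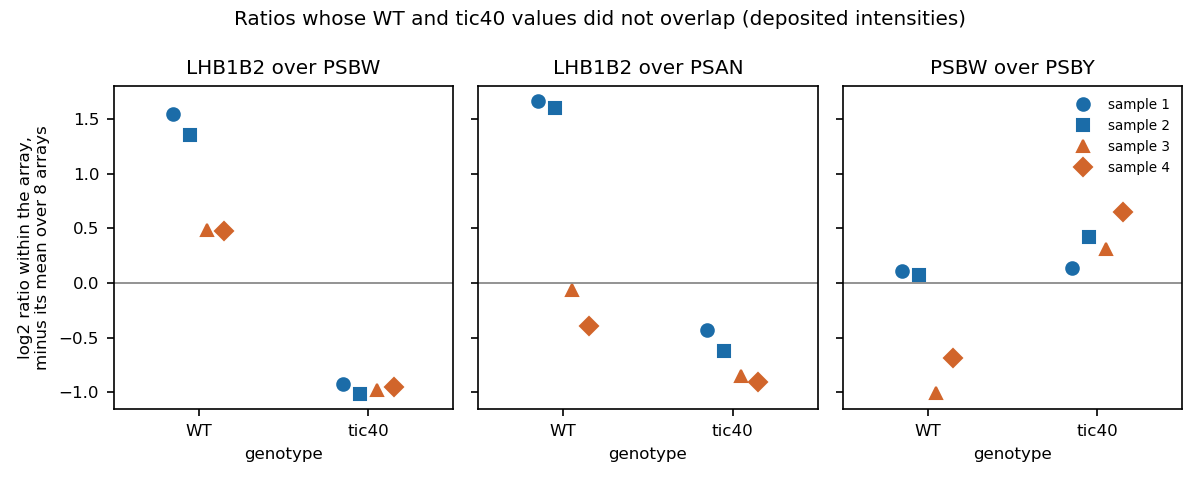
Log2 ratio of 2 genes within an array, from deposited intensities, minus its mean over the 8 arrays, for the 3 of 15 ratios whose genotypes did not overlap. Points are single arrays, with blue for samples 1 and 2 and orange for samples 3 and 4. LHB1B2 over PSBW is between -1.02 and -0.92 on the tic40 arrays and at 0.48 or above in WT.

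Among the 611 other single-gene probes above 0 on every array, those with the profile nearest to each gene were sought by the same distance. AT5G59060 (0.317), AT1G35210 (0.326) and PRK (0.337), which encodes the Calvin cycle enzyme phosphoribulokinase, were nearest to LHB1B2. PRK had a mean level of 0.918 in WT samples 1 and 2, 0.439 in WT samples 3 and 4, and 0.338 in tic40. In the same order AT5G59060 had 0.706, 0.512 and 0.234, and AT1G35210 had 0.590, 0.291 and 0.216. All 3 were picked for a profile near that of LHB1B2, so a shared order of levels follows from the choice. The nearest to PSBW were AT2G36560 (0.123), Cpn60beta4 (0.123), a plastid chaperonin subunit, and AT1G30700 (0.129).

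The nearest to PSBY were AT1G28150 (0.0930), AT5G38310 (0.0991) and AT1G48570 (0.1003). The nearest to PSAN were AT3G09850 (0.162), CUTA (0.164) and AT4G34310 (0.171). AT4G22650 (0.127), AT4G20690 (0.130) and GLDH (0.179), which encodes the last enzyme of vitamin C synthesis, were nearest to PSB27. AT4G01810 (0.0826), AT3G57630 (0.0982) and AT1G61590 (0.126) were nearest to LPA19. AT4G01810 had a level of 0.951 in WT samples 1 and 2, 2.14 in WT samples 3 and 4, and 1.004 in tic40. It was picked for a profile near that of LPA19, so this order of levels follows from the choice.

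A wider list of 124 nuclear genes of the photosystems, antenna, photosystem assembly, electron transport and ATP synthase was compared with the annotation. Single-gene probes measured 8 of them, the 6 genes above and 2 further genes, and 8 more appear only on probes with several genes and are not analysed here. Of the 8 measured, 1 was called higher, PSBW, and 0 lower. PIFI, a factor of the chloroplast NDH complex, had 0.0583 (the floor, from a value listed at 0), 0.0983, 0.00730 and 0.00892 in WT samples 1 to 4, and 0.0487 to 0.0630 in tic40 (limma adjusted p = 0.426). CCB3, a factor of cytochrome b6 maturation, was above 0 on 1 tic40 array alone, at 0.0870, and listed at 0 elsewhere. Of 23 listed marker genes of green tissue, seed, root and pollen, 0 had a single-gene probe, so the tissue was not checked.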

How the data were processed

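Total RNA of 4 WT and 4 tic40 samples was measured on 1-colour arrays. The deposited table holds intensities on a linear scale, with 3439 probes and 1 column per sample, and 0 columns without a sample. How the authors corrected background and scaled these intensities is not given in the sources used here. The precision is set by the number of arrays, as there is no read depth.

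Intensities were quantile-normalised, zeros were set to percentile 1 of the array's positive values (0.0147 to 0.0665), and 3318 probes above 0 on at least 1 array were tested on the log2 scale by limma (version 3.58.1, R 4.3.3; lmFit and eBayes, two-sided, Benjamini-Hochberg over all probes, threshold 0.05). The fit was checked on simulated data with independent noise and no zeros. Those data held no pairs of WT samples, so the check does not cover the pairs noticed here. Genotype was the only term in the fit reported. A second fit added the pair of sample numbers and its interaction with genotype. Genes were named from the platform annotation (692 probes with 1 gene, 870 with several, 1877 with none). No coordinates or sequences are printed, since the build of the probes is not given and no sequence table was used here.

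The genes and lists were chosen with earlier results of these data known. The genes named are the 6 genes, the 3 nearest profiles of each, and measured list members. As a check of pairing, same-numbered WT and tic40 samples deviated together from their genotype means, with correlations of 0.306, 0.310, 0.261 and 0.254 for numbers 1 to 4. All were over 0.1, so by the rule used the numbers pair the samples, from the data and not from the labels. The fit reported is without this block, and blocked values stand beside results whose calls it changes. The alternatives were the replicate block, other scalings, floors and filters, and leaving arrays out.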

Additional observations from a re-analysis of the deposited data

Results flagged for a closer look

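The interaction was called for 4 of the 6 genes and for 51.7% of all probes, so the count is near the share of the array. The pairs of samples were noticed in these same data, and the fit measures only the spread within pairs. The genotype difference, tic40 minus WT, in samples 3 and 4 minus that in samples 1 and 2 was 1.45 for LHB1B2 and 0.83 for PSAN on the log2 scale. It was -1.68 for PSB27 and -1.13 for LPA19. PSAN was not called as deposited (0.37, limma adjusted p = 0.262), and with 1 array left out it was called in 1 of 8 fits. WT samples 3 and 4 stand apart from WT samples 1 and 2 over the whole array, and the part of that shift in these values was not tested.

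Single arrays stood far from the other 3 of their genotype in 2 of 12 groups of 4 values. These gaps were taken on the log2 scale. For LHB1B2, tic40 sample 4 was high, with a gap to the nearest value of 0.833 of the whole range. For PSAN, WT sample 3 was low, at 0.86 of the range. Chance gives about 1 such value in 20 groups. The tic40 range of LHB1B2 in normalised intensity was narrow, 2.51 to 2.93, so the value flagged for LHB1B2 is a small difference in level.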

How the results depend on the processing

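The count of probes called between the genotypes, 255 in the fit reported, was 5 with the replicate block (884 with an unadjusted p under 0.05), 985 without both WT samples 3 and 4, 1833 without both WT samples 1 and 2, 1012 in samples 1 and 2 alone, 2000 in samples 3 and 4 alone and, with limma on averaged pairs of samples, 0 (184 with an unadjusted p under 0.05). It was 43 to 240 with 1 array left out, and 43, 45, 54 and 44 without tic40 samples 1 to 4, 127 without WT sample 3 and 122 without WT sample 4. The replicate block ended the call of PSBW and changed no other call of the 6 genes in the genotype fit. PSBW lost its call under 13 of 20 alternatives, including no filter on dim probes (adjusted p = 0.0541). Signs turned for PSAN in samples 3 and 4 (0.15), for PSB27 without both WT samples 3 and 4 (0.27) and in samples 1 and 2 (0.42), and for LPA19 in the same settings (0.21 and 0.12), with none of these 5 called. The interaction count of 1717 was 1324 to 1743 with 1 array left out, where a lone sample is assumed to vary like the others. The interaction of PSBY was -0.23 as deposited and -0.063 to 0.19 with 1 array left out, that of PSBW -0.042 to 0.11, and that of PSAN passed in 1 of 8 such fits. LHB1B2, PSB27 and LPA19 kept the sign and call of the interaction under all 15 alternatives run, 9 of them chosen after seeing the data (each array left out, and the replicate block). The 6 probes were above 0 on every array, but no background level is given, so how far they lie above background is unknown.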
